A study of Mus musculus with 54 samples.

Results

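Repopulated microglia (MG) of wild-type (WT) mice were compared with never-depleted MG, both 12 h after an injection of lipopolysaccharide (LPS), the endotoxin of Gram-negative bacteria. The comparison rests on 6 of the 54 libraries of the series, chosen by their labels: MG of mice 8, 11 and 12, treated with BLZ945 and later with LPS (BLZ945+LPS), and MG of mice 1, 4 and 6, treated with the vehicle of BLZ945 and later with LPS (CTL+LPS). MG of untreated WT mice 9, 14 and 15, injected with PBS, served as the resting reference, and MG of Ccr2-/- mice under the same treatments, 3 mice a group, served for the same contrast in other animals. The WT mice were adult C57BL/6JCrl animals, the cells were sorted from brain without choroid plexus, and LPS was given 8 weeks after the end of BLZ945 or vehicle. No WT group received BLZ945 without LPS, and the MG of Ccr2CreERT2 R26tdT reporter mice given BLZ945 and PBS, which differ in genotype, tamoxifen and batch label, were not used here. Within WT mice, a difference that was present before LPS and one that arose with it cannot be told apart. The study checked the loss of MG density in depletion controls soon after the last dose, and the share of newly formed MG in the mice analysed here was not measured in these data.

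MG are the macrophages of the brain parenchyma and depend on signals through the CSF1 receptor. BLZ945 inhibits this receptor and depletes MG, and after withdrawal the niche is refilled, largely by division of surviving MG and, where it is open to them, by cells from the blood. MG that have repopulated resemble resident MG in most respects, and LPS shifts both from a homeostatic programme (P2ry12, Tmem119, Sall1) to one of cytokines, chemokines and interferon-stimulated genes. The question was which genes still distinguish repopulated from resident MG under this challenge.

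The 9 WT MG libraries held between 7497764 and 9506827 counts. Each WT group held 1 mouse with Xist and 2 mice with transcripts of the Y chromosome, so sex was balanced over the groups. P2ry12, a purinergic receptor of homeostatic MG, lay at 589, 1593 and 1228 CPM (counts scaled to 1e6 per library) in CTL+LPS and at 1202, 989 and 1211 CPM in BLZ945+LPS. Markers of T and NK cells did not exceed 0.105 CPM in sum after LPS, and 7 of the 8 listed in the tables had no count in the 6 libraries. The summed level of 10 MG markers ranged from 9707 to 15540 CPM in CTL+LPS and from 13450 to 16250 CPM in BLZ945+LPS, so both groups were MG by their markers. In bulk samples, a different share of cells and a different level per cell cannot be told apart.

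Repopulated MG differed from resident MG after LPS in few genes. Of 11789 genes tested, 9 (0.0763%) passed the test, which asked for a change of more than 1 log2 unit at an adjusted p below 0.05. In BLZ945+LPS, 7 of them were higher (0.0594%) and 2 lower (0.017%). The higher genes were Apoe, Lyz2, Axl, Fn1, Cspg4, Cd36 and Ak1, and the lower ones were Pecam1 and Mrc1. At an unadjusted p under 0.05 there were 407 higher and 369 lower genes. By comparison, CTL+LPS against untreated MG gave 1972 such genes (16.7%) and BLZ945+LPS against the same untreated libraries gave 1868 (15.8%), contrasts in which vehicle or BLZ945 changed together with LPS.

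**Figure D1:**
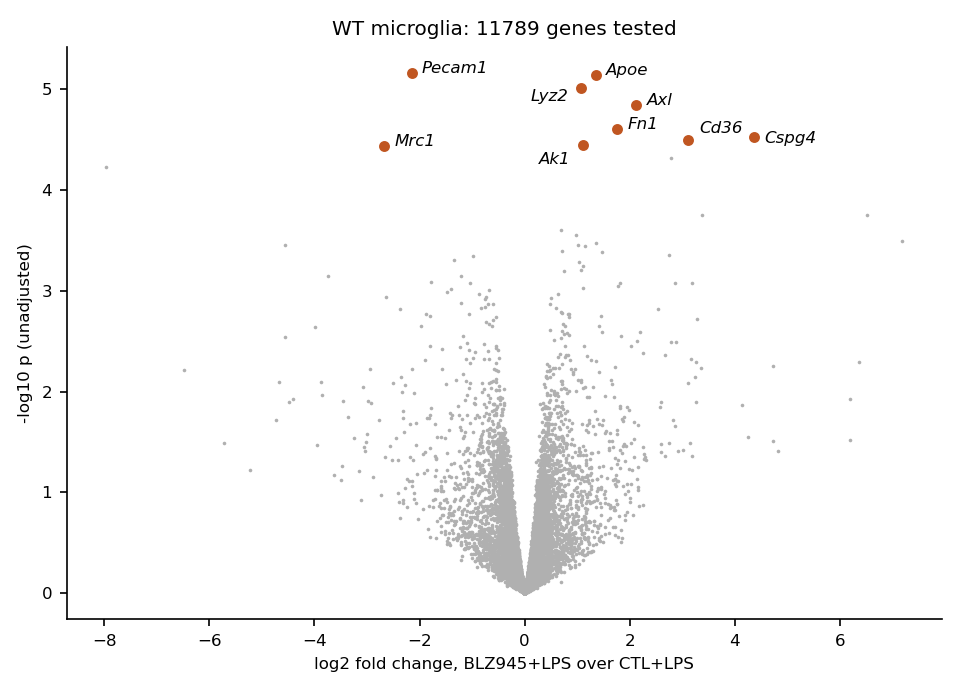
Each point is 1 of the 11789 genes tested in WT MG, with the log2 fold change of BLZ945+LPS over CTL+LPS on the x axis and the -log10 of the unadjusted p on the y axis. The 9 named points passed the test, 7 to the right and 2 to the left of 0.

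The 95% interval of the log2 fold change lay within 1 unit of 0 for 7957 genes (67.5%), and the median interval reached 0.519 to either side of its estimate. The other intervals reached past a 2-fold difference in at least 1 direction or could not be computed. The 9 calls lay close to the threshold, with adjusted p between 0.0385 and 0.0479. Leaving out CTL+LPS mouse 6, BLZ945+LPS mouse 11 or 12, or untreated mouse 14 left 0 calls in edgeR, with 603, 592, 608 and 730 genes at an unadjusted p under 0.05, while DESeq2 on all libraries gave 49 and limma-voom 5. Without untreated mouse 9 or 15 or BLZ945+LPS mouse 8, the calls were 3, 1 and 1. The sign of each of the 9 fold changes was the same in all 21 refits. These refits reuse the same WT libraries. Their values for the 9 genes do not overlap between the groups, so the unchanged sign adds no support.

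**Figure D2:**
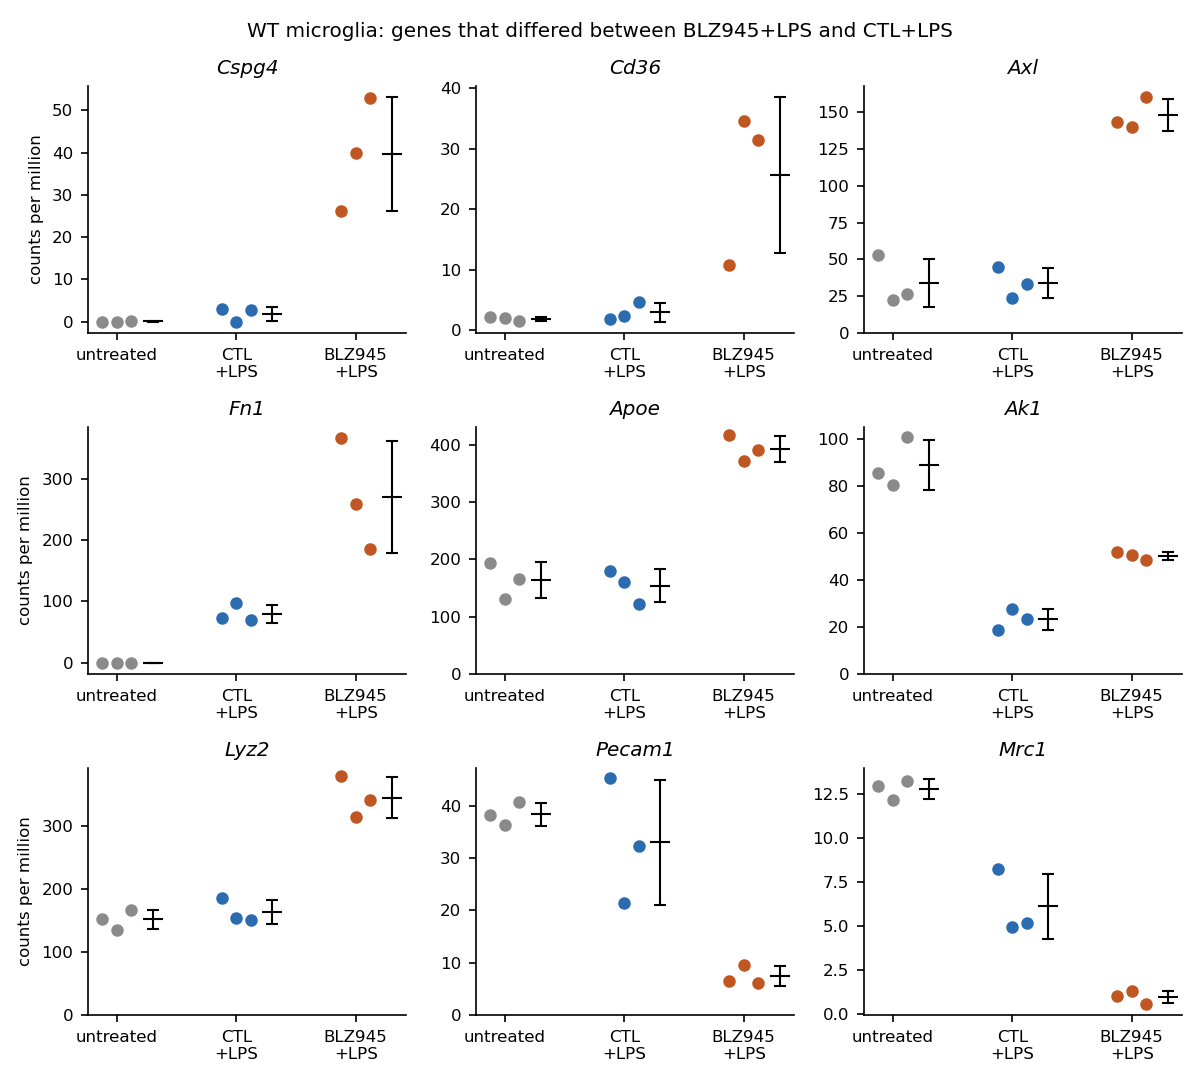
CPM of the 9 genes in each WT MG library on linear axes, 3 mice a group (points), with the mean and SD beside them. In each panel the 3 BLZ945+LPS libraries lie wholly above or wholly below the 3 CTL+LPS libraries.

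Apoe and Lyz2, both typical of macrophages outside the parenchyma, were higher in repopulated MG. Apoe encodes apolipoprotein E, the main lipid carrier of the brain, which is low in homeostatic MG and high in macrophages at the borders of the brain and in activated MG. Apoe measured 179.7, 160.3 and 123 CPM in CTL+LPS and 417, 371 and 392 CPM in BLZ945+LPS. The groups were far apart, and the BLZ945+LPS values also lay above the 131 to 193 CPM of untreated MG. The log2 fold change was 1.35 (95% interval 0.96 to 1.74, adjusted p = 0.0385). Lyz2, which encodes the lysozyme M of myeloid cells, measured 186, 153 and 151 CPM in CTL+LPS and 379.8, 314 and 341 CPM in BLZ945+LPS. Its log2 fold change was 1.08 (0.76 to 1.40, adjusted p = 0.0385), and the untreated libraries at 135 to 166 CPM were close to CTL+LPS. Against untreated MG, the log2 changes of Apoe and Lyz2 were -0.09 and 0.11 in CTL+LPS, neither past the test, and 1.26 and 1.19 in BLZ945+LPS.

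Axl, a receptor tyrosine kinase that binds Gas6 on dying cells, showed the same pattern more strongly. Axl measured 44.5, 24.1 and 33 CPM in CTL+LPS and 143, 140.2 and 161 CPM in BLZ945+LPS, with 22.7 to 53 CPM in untreated MG. The difference of 2.13 (1.49 to 2.77, adjusted p = 0.0422) on the log2 scale was well beyond the spread of each group. Against untreated MG, the log2 change of Axl was 0.00 in resident MG and 2.13 in repopulated MG.

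Fn1 and Cspg4 had almost no counts in untreated MG. Fn1, which encodes fibronectin, a matrix protein made by macrophages on activation, had at most 0.23 CPM in untreated MG. Fn1 reached 73.1, 96.7 and 69.3 CPM in CTL+LPS and 366, 259 and 185 CPM in BLZ945+LPS. Its log2 fold change was 1.76 (1.19 to 2.33, adjusted p = 0.0479), and mouse 8 was the highest of the repopulated libraries. Cspg4, which encodes the proteoglycan NG2 known from oligodendrocyte precursors and pericytes, measured 2.88, 0 and 2.81 CPM in CTL+LPS and 26.1, 39.9 and 53 CPM in BLZ945+LPS. Its log2 fold change was 4.36 with a wide interval of 2.97 to 5.77 (adjusted p = 0.0479), and the untreated libraries had at most 0.12 CPM. Summed levels of 6 pericyte and fibroblast markers were 1.28 to 3.48 CPM in CTL+LPS and 0.633 to 4.81 CPM in BLZ945+LPS. Those of 6 oligodendrocyte markers were 119 to 138 and 127 to 153 CPM, so neither list moved with Cspg4 by a comparable amount.

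Cd36, a scavenger receptor for oxidised lipids and fatty acids, measured 1.82, 2.34 and 4.71 CPM in CTL+LPS and 10.9, 34.6 and 31.5 CPM in BLZ945+LPS. Mouse 8 lay well below mice 11 and 12, yet above all CTL+LPS libraries, and the log2 fold change was 3.12 (2.11 to 4.13, adjusted p = 0.0479). Ak1, which encodes adenylate kinase 1 and balances adenine nucleotides, had a different course. Ak1 measured 85.6, 80.3 and 101 CPM in untreated MG, 18.8, 27.6 and 23.2 CPM in CTL+LPS and 51.7, 50.4 and 48.3 CPM in BLZ945+LPS. Against untreated MG, Ak1 was lower by 1.94 on the log2 scale in CTL+LPS (log2 fold change -1.94) and by 0.83 in BLZ945+LPS (-0.83), and the difference between them was 1.11 (0.73 to 1.49, adjusted p = 0.0479).

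Pecam1 and Mrc1 were the 2 lower genes. Pecam1 encodes the adhesion molecule CD31 of endothelial cells, which some leukocytes also carry. Pecam1 measured 38.2, 36.3 and 40.7 CPM in untreated MG, 45.3, 21.5 and 32.3 CPM in CTL+LPS and 6.46, 9.63 and 6.14 CPM in BLZ945+LPS. Its log2 fold change was -2.15 (-2.76 to -1.54, adjusted p = 0.0385). The summed level of 6 endothelial markers moved with it, from 23.5 to 47.3 CPM in CTL+LPS to 6.92 to 10.4 CPM in BLZ945+LPS, but Pecam1 made up nearly all of that sum. Only Pecam1 of these 6 markers passed the filter on low counts. Cldn5, a defining marker of brain endothelium, had 0, 0 and 1 counts in CTL+LPS and none in BLZ945+LPS, Itm2a had 4, 0 and 0 against none, and Flt1 had 14, 1 and 0 against 5, 7 and 7. The part of endothelial RNA in the difference was not tested.

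Mrc1 encodes the mannose receptor CD206, the surface protein by which macrophages of the leptomeninges and perivascular spaces were set apart from MG in the sort. Mrc1 measured 12.9, 12.1 and 13.2 CPM in untreated MG, 8.22, 4.9 and 5.16 CPM in CTL+LPS and 1.01, 1.26 and 0.56 CPM in BLZ945+LPS. Its log2 fold change was -2.67 (-3.62 to -1.77, adjusted p = 0.0479). The sort used the CD206 protein, and the part of the gate in the difference of Mrc1 RNA was not tested. The summed level of 9 markers of these border macrophages was 12.6 to 31 CPM in CTL+LPS and 10.5 to 22.1 CPM in BLZ945+LPS, with overlap, and only 3 of the 9 passed the filter on low counts. Lyve1 had 0, 5 and 0 counts in CTL+LPS and none in BLZ945+LPS. Folr2 had 0, 1 and 1 against none, so these 2 markers were at or near 0 in both groups. Cd163, also below the filter, had 5, 25 and 3 counts against 1, 0 and 0, lower without overlap as Mrc1 was. F13a1, at 0, 2 and 1 counts in untreated MG, had 139, 94 and 54 counts against 42, 50 and 161. F13a1, Clec4n, Ms4a7, Cbr2 and Pf4 overlapped between the groups. Border macrophages also express Apoe and Lyz2, and their part in the higher values was not tested.

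Blood monocytes also express Apoe, Lyz2 and Fn1. The summed level of 6 monocyte markers was 28.4 to 86 CPM in CTL+LPS and 108 to 136 CPM in BLZ945+LPS, without overlap. Ms4a4c, which LPS and interferon also raise in MG, carried most of this sum, with 74.7, 22.1 and 49.4 CPM in CTL+LPS and 129, 126 and 104 CPM in BLZ945+LPS. Its log2 fold change of 1.29 did not pass the test (adjusted p = 0.563). Ccr2, the defining chemokine receptor of these monocytes, measured 6.62, 3.85 and 0.9 CPM in CTL+LPS and 5.95, 1.78 and 2.46 CPM in BLZ945+LPS, with overlap. Plac8 was lower in BLZ945+LPS, at 0.25 to 1 CPM against 1.63 to 3.84 CPM (adjusted p = 0.545), and Chil3 and S100a4 were at or near 0 in both groups, with 0, 7 and 0 and with 0, 0 and 1 counts in CTL+LPS and none in BLZ945+LPS. Whether a share of monocyte-derived cells took part in the higher values was not tested.

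The promoters of 7 of the 9 genes are in the RefSeq table of GRCm38.p6, and 5 of them have a single entry. The 250 bases before the annotated start are shown for Axl and Lyz2, which were higher, and for Mrc1, which was lower, since these genes are used as markers of macrophage states. Capitals mark the core motif of PU.1 (GAGGAA, read on both strands), the lineage factor of macrophages and MG. The AP-1 motif (TGANTCA) was searched as well. Only these exact letters were searched, and other forms of PU.1 sites were not. The Axl promoter is at chr7:25788734-25788983 on the minus strand, that of Lyz2 at chr10:117282273-117282522 on the minus strand and that of Mrc1 at chr2:14229164-14229413 on the plus strand.
Axl: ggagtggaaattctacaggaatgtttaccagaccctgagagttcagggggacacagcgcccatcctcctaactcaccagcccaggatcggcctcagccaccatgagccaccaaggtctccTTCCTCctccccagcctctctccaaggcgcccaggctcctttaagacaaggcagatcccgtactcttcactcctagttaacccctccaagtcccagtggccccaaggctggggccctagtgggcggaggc
Lyz2: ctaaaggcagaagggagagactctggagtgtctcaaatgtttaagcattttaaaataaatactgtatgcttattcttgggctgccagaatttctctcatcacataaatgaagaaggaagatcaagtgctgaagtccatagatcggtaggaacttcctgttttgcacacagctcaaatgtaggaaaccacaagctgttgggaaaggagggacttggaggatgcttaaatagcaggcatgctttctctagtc
Mrc1: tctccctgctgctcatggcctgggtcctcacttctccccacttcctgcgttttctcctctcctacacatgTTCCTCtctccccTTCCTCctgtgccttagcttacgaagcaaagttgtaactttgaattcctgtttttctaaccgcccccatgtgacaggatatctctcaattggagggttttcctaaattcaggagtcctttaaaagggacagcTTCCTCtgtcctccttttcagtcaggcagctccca
The PU.1 core occurred 3 times in the Mrc1 window, 1 time in that of Axl and 0 times in those of Lyz2, Cd36 and Cspg4, so 2 of the 5 single-entry promoters held it, and 23.3% of all 32851 promoters in the table hold it. None of the 5 windows held the AP-1 motif, which 6.7% of all promoters hold.

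Just outside the threshold stood P2ry14 and Ptger3, named here after their values were seen. P2ry14, a receptor for UDP-glucose, measured 3.74, 2.92 and 3.82 CPM in CTL+LPS and 23.8, 22.1 and 26.9 CPM in BLZ945+LPS, for a log2 fold change of 2.79 (adjusted p = 0.057). Ptger3, a receptor for prostaglandin E2, measured 1.82, 6.19 and 2.92 CPM in CTL+LPS and had no count in any BLZ945+LPS library (adjusted p = 0.0629). With a floor of 3 counts over the group, Ptger3 was at least 32.3-fold lower in repopulated MG. In untreated MG it had measured 17.9, 5.93 and 9.86 CPM. DESeq2 called both of these genes.

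Among genes lower in BLZ945+LPS at 10 CPM or more, Serpinf1, Vopp1, Tanc1 and Jam3 followed Pecam1 by p and did not pass the test, with adjusted p from 0.223 to 0.277. Serpinf1, which encodes the secreted factor PEDF, measured 18.7, 19.7 and 24.8 CPM in CTL+LPS and 8.49, 12.7 and 10.8 CPM in BLZ945+LPS. Jam3, a junctional adhesion molecule, measured 15.2, 18.9 and 23.4 CPM against 10.4, 8.47 and 9.04 CPM. Vopp1 and Tanc1 were higher in CTL+LPS than in untreated MG, by 3.13 and 1.94 on the log2 scale, and lay 1.35 and 1.21 lower in repopulated than in resident MG. DESeq2 called Vopp1, Tanc1 and Jam3 lower.

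No gene of the homeostatic programme passed the test between repopulated and resident MG after LPS. Of 24 homeostatic genes tested, 0 passed in edgeR, DESeq2 or limma-voom, 3 had an unadjusted p under 0.05, the median log2 fold change was 0.09 against -0.01 over all genes, and 20 had an interval within 1 unit of 0. Against untreated MG, the list's median log2 fold change was -1.38 in CTL+LPS and -1.15 in BLZ945+LPS. Csf1r, the receptor that BLZ945 blocks, measured 7932, 9823 and 9180.0 CPM in CTL+LPS and 8933, 9255 and 9538 CPM in BLZ945+LPS, with overlap (log2 fold change 0.04). Sall1, a transcription factor that fixes MG identity, measured 178, 291 and 342 CPM against 319, 313 and 320.3 CPM. Olfml3, a secreted protein typical of MG, had the smallest p of the list, with 339.7, 623 and 438 CPM in CTL+LPS and 1056, 855.02 and 859 CPM in BLZ945+LPS (log2 fold change 0.98, adjusted p = 0.213). Of 17 transcription factors of macrophage identity, 0 passed and 0 had an unadjusted p under 0.05, with a median of 0.04.

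Genes of the LPS response were described with lists drawn from Ccr2-/- MG, which share no library with the WT comparison. There, CTL+LPS against untreated gave 1215 higher (10.5%) and 1028 lower (8.89%) genes. Of the LPS-induced genes, 1197 were tested in WT MG, with a median log2 fold change of -0.08 between BLZ945+LPS and CTL+LPS, and 2 were called higher. Of the LPS-repressed genes, 1016 were tested, with a median of 0.07, and 1 was called higher and 2 lower. Over untreated WT MG, the induced genes stood at a median log2 level of 1.69, 0.89 and 1.31 in CTL+LPS mice 1, 4 and 6, and at 1.23, 1.35 and 1.25 in BLZ945+LPS mice 8, 11 and 12. The repressed genes stood at -1.78, -0.90 and -1.28 against -1.12, -1.31 and -1.19. The repopulated libraries lay within the range of the resident ones, and the resident ones were spread more widely, with mouse 1 responding most and mouse 4 least.

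**Figure D3:**
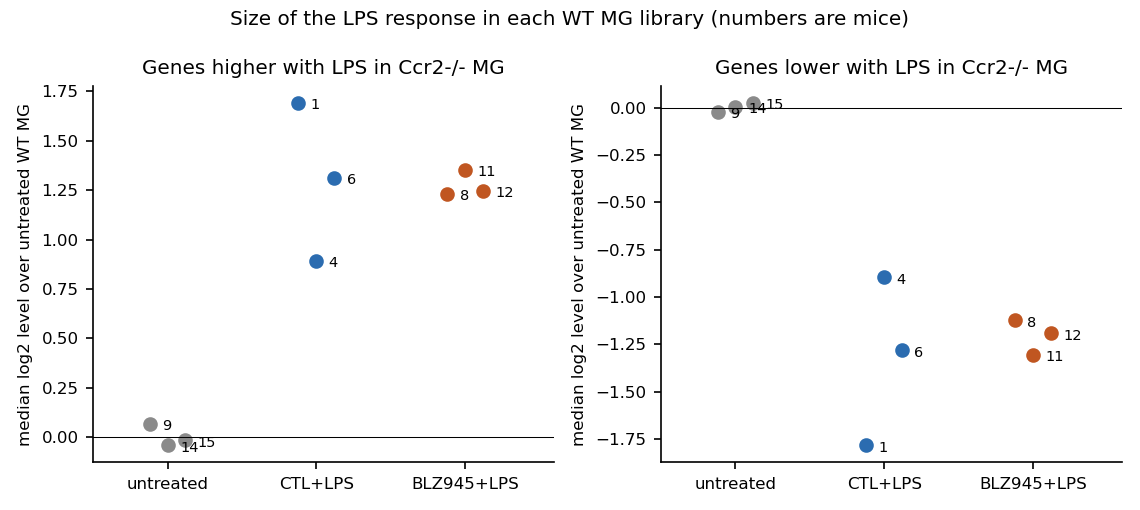
Median log2 level over untreated WT MG, in each WT MG library, of the genes called higher (left) or lower (right) with LPS in Ccr2-/- MG, with the mouse number beside each point. CTL+LPS libraries spread from 0.89 to 1.69 on the left, and the 3 BLZ945+LPS libraries lie between 1.23 and 1.35.

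Cytokines, chemokines and their regulators showed this spread between mice. Il1rn, which encodes the antagonist of the interleukin 1 receptor, measured 693, 24.3 and 151 CPM in CTL+LPS and 126, 339.8 and 181 CPM in BLZ945+LPS. Saa3, an acute phase protein, measured 1918, 108 and 405 CPM against 527, 789 and 522 CPM. In both genes the lowest and the highest value came from resident MG. Of 13 cytokines, 16 chemokines, 22 genes of LPS sensing and 23 genes of NF-kappaB and its feedback, 0 passed in edgeR or limma-voom, with medians of -0.21, 0.19, -0.05 and -0.09 and with 1, 4, 2 and 1 at an unadjusted p under 0.05. DESeq2 called 1 of them, Cxcl14. Among the chemokines, Ccl22, a ligand of Ccr4, measured 5.66, 0.58 and 6.73 CPM in CTL+LPS and 8.61, 88.3 and 28.9 CPM in BLZ945+LPS, where mouse 11 stood apart (log2 fold change 3.27, adjusted p = 0.336). Cxcl14 measured 1.68 to 2.8 CPM against 7.7 to 11.1 CPM (adjusted p = 0.426).

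Other lists leaned to one side in values that did not pass the test gene by gene. Groups that did not overlap made up 6.39% of all genes with higher values in BLZ945+LPS and 5.35% with lower values. Of 29 lysosomal genes tested, 27 had a positive log2 fold change, 12 did not overlap with higher values, 9 had an unadjusted p under 0.05, 0 passed, and the median was 0.26, with an interval within 1 unit of 0 in all 29. Npc2, which moves cholesterol out of lysosomes, measured 345, 336 and 335 CPM in CTL+LPS and 458, 491 and 479 CPM in BLZ945+LPS (log2 fold change 0.49, adjusted p = 0.314). Ctss, the protease cathepsin S, measured 7249, 7822 and 8773 CPM against 10734, 9906 and 10139 CPM (log2 fold change 0.37, adjusted p = 0.545). The lysosomal median in Ccr2-/- MG was 0.02, and the difference between the medians was not tested.

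Disease-associated MG genes, a set induced around amyloid plaques through Trem2 and Apoe, had 22 members tested, of which Apoe and Axl passed and 9 did not overlap with higher values. Their median log2 fold change was 0.25. The list was chosen with earlier results of these data known, so its 2 calls do not show that calls gather in it. Itgax, which encodes CD11c, measured 12.2, 8.99 and 11.7 CPM in CTL+LPS and 32.7, 30.9 and 20.9 CPM in BLZ945+LPS (log2 fold change 1.36, adjusted p = 0.213), and DESeq2 called it. Ctsb, a lysosomal protease, overlapped between the groups, with a log2 fold change of 0.24. After their values were seen, Spp1 and Lpl were looked up as further members, with log2 fold changes of -0.60 and -0.37, neither past the test.

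A list of myeloid genes that are usually low in resting resident MG had 20 members tested and held 3 of the 9 calls, Apoe and Lyz2 higher and Mrc1 lower. The list was chosen with earlier results of these data known, so this count does not show that calls gather in it. Against untreated MG, the list's median was 2.74 in CTL+LPS, so the list's name describes rest and not these libraries. Its median in BLZ945+LPS against CTL+LPS was 0.37, and 8 members did not overlap with higher values. Ms4a6d and Ms4a6b, members of a cluster of membrane proteins that LPS raises, overlapped between the groups, with log2 fold changes of 0.34 and 0.06. Fxyd5, a regulator of the sodium pump, measured 13.8, 26.3 and 20.8 CPM against 41.3, 44.3 and 45.9 CPM (adjusted p = 0.245 in edgeR, called in DESeq2).

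Lists of antigen presentation and interferon genes had positive medians, without a gene that passed. The median log2 fold change was 0.35 over 9 genes of MHC class II, 0.28 over 22 genes of MHC class I and the immunoproteasome, and 0.27 over 39 type I interferon-stimulated genes, and 0 of them passed in edgeR, DESeq2 or limma-voom, with 4, 4 and 6 at an unadjusted p under 0.05. Cd74, the invariant chain of MHC class II, measured 324, 174 and 328 CPM in CTL+LPS and 409, 576 and 363 CPM in BLZ945+LPS (adjusted p = 0.729). H2-M3, which presents formylated bacterial peptides, measured 47.6, 51.1 and 55.6 CPM against 78.3, 81.2 and 80.0 CPM (log2 fold change 0.63, adjusted p = 0.471). Oas2, a sensor of double-stranded RNA, measured 15.4, 12.4 and 4.38 CPM against 50.5, 20.9 and 26.2 CPM (adjusted p = 0.729). The medians in Ccr2-/- MG were 0.36, 0.23 and 0.06. The complement genes C1qa, C1qb and C1qc had log2 fold changes of 0.34, 0.28 and 0.35 without overlap and without passing the test.

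**Figure D4:**
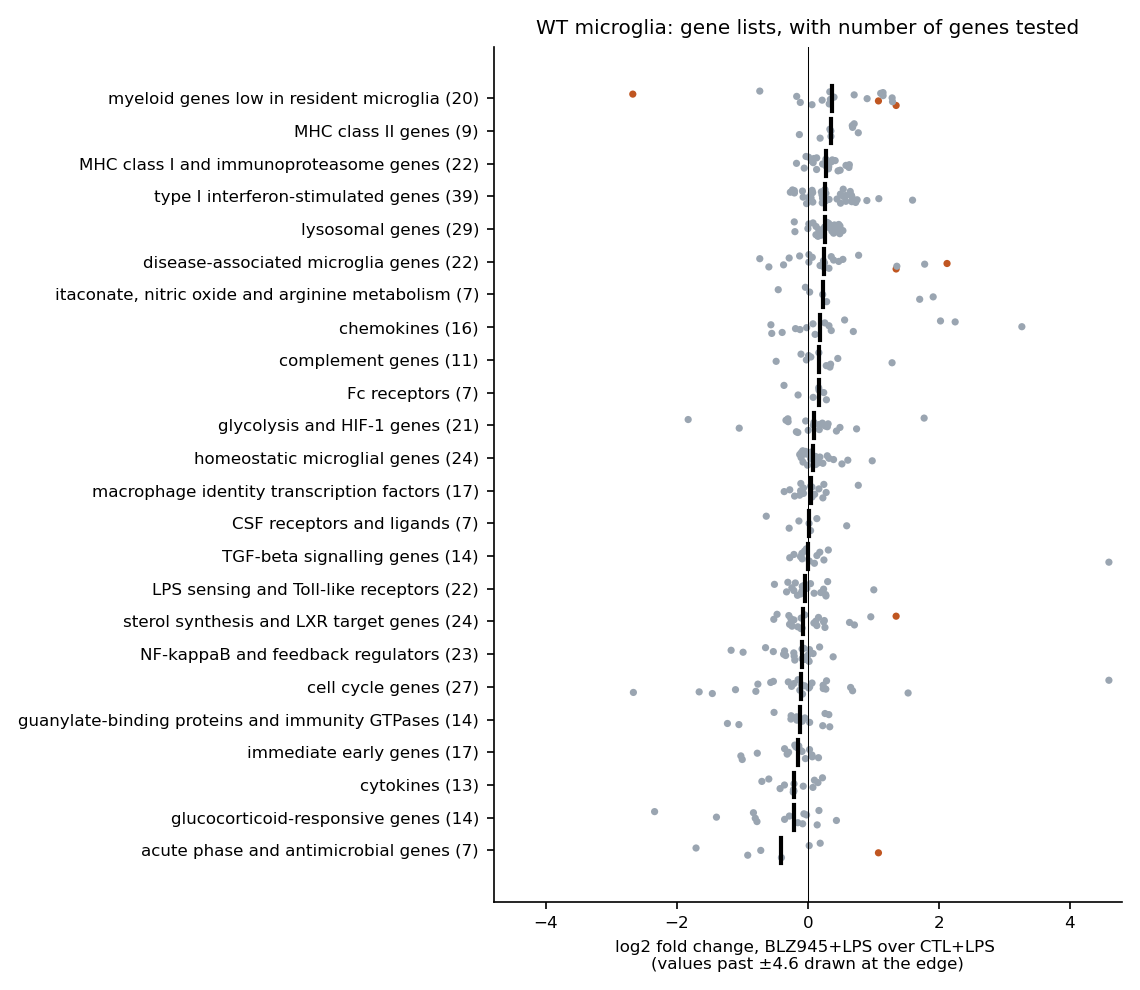
Log2 fold change of BLZ945+LPS over CTL+LPS in WT MG for each tested member (points) of the pathway lists, with the number tested in brackets and the median as a black bar. Members that passed the test are orange, and the medians range from -0.40 for acute phase and antimicrobial genes to 0.37 for the list of myeloid genes named for their low level in resident MG at rest.

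Other lists had medians below 0, as did the cytokines and the NF-kappaB regulators. Of 14 glucocorticoid-responsive genes, 11 had a negative log2 fold change, 3 did not overlap with lower values (21.4%), and the median was -0.22. At an unadjusted p under 0.05, 5 of the 14 were lower and 0 higher, against 369 lower and 407 higher of all 11789 genes. Ddit4, an inhibitor of mTORC1, measured 228, 279 and 120.4 CPM in CTL+LPS and 66.9, 69.8 and 102 CPM in BLZ945+LPS (log2 fold change -1.40, adjusted p = 0.287), and DESeq2 called it lower. Fkbp5, another target of the glucocorticoid receptor, had a log2 fold change of 0.14, and the list's median in Ccr2-/- MG was 0.16. Of 17 immediate early genes, 13 were negative, with a median of -0.16, and Ier3 measured 126, 76.8 and 109 CPM against 75.9, 58.9 and 48.2 CPM (adjusted p = 0.471). Of 27 cell cycle genes, 0 passed by any of these tools and 3 had an unadjusted p under 0.05, with a median of -0.10. Mcm3 and Mcm6, which license replication origins, had log2 fold changes of 0.24 and 0.03.

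Further lists gave no call or only calls already named. Of 24 sterol synthesis and LXR target genes, Apoe passed, and the median was -0.07, with Abca1 at -0.52. Of 7 receptors and ligands of the colony-stimulating factors, 0 passed by these tools, and Csf2ra was the 1 gene with an unadjusted p under 0.05, at 191, 182 and 165 CPM in CTL+LPS and 259, 269.5 and 284 CPM in BLZ945+LPS (adjusted p = 0.319). Of 14 TGF-beta signalling genes, 0 passed, with a median of 0.00, and Tgfb2 had no count in CTL+LPS and 11, 28 and 18 counts in BLZ945+LPS, which is at least 18.8-fold higher against a floor of 3 counts over the group (adjusted p = 0.213 in edgeR, called in DESeq2). In Ccr2-/- MG, Tgfb2 had 14, 0 and 11 counts in CTL+LPS and none in BLZ945+LPS. Of 14 guanylate-binding proteins and immunity GTPases, 21 glycolysis and HIF-1 genes, 7 Fc receptors and 7 genes of itaconate, nitric oxide and arginine metabolism, 0 passed in edgeR, DESeq2 or limma-voom, with 0, 4, 0 and 2 at an unadjusted p under 0.05. The 80 ribosomal protein genes had a median of -0.06. Ttr, the transthyretin of the choroid plexus, measured 93.3, 39.7 and 12.9 CPM in CTL+LPS and 54.3, 100.4 and 195 CPM in BLZ945+LPS, with overlap (log2 fold change 1.26, adjusted p = 0.763). The median over the 3 tested markers of choroid plexus and ependyma was 1.03, and it was positive in all 21 refits.

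The same contrast in Ccr2-/- mice, whose monocytes largely fail to leave the bone marrow, used 6 other MG libraries. Titles of these libraries named the other cell type, and the cell type characteristic was followed, with P2ry12 at 849 to 1694 CPM and Mrc1 at 1.62 to 5.3 CPM. Ccr2 itself was too low in MG to check the genotype, at 2.38 to 6.19 CPM in these libraries and 0.9 to 6.62 CPM in the 6 WT libraries. Of 11558 genes tested in Ccr2-/- MG, 2 (0.0173%) were called, Apoe and Ptger3. Apoe measured 239, 248 and 312 CPM in CTL+LPS and 602, 658 and 512 CPM in BLZ945+LPS there. Ttr, a choroid plexus transcript, measured 2.84, 0 and 6.28 CPM in CTL+LPS and 325, 97.8 and 7 CPM in BLZ945+LPS of these mice (adjusted p = 0.627), and its part in the Apoe difference was not tested. Ptger3 again had no count in BLZ945+LPS and was at least 37.1-fold lower.

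All 9 WT calls had the same sign in Ccr2-/- MG, and 7 of them had an unadjusted p under 0.05. Over all 11558 genes tested there, 769 had an unadjusted p under 0.05. The log2 fold change was 1.35 in WT and 1.15 in Ccr2-/- MG for Apoe, 1.08 and 0.95 for Lyz2, and 2.13 and 1.60 for Axl. It was -2.15 and -1.60 for Pecam1 and -2.67 and -1.09 for Mrc1. Cd36 and Ak1 were the exceptions, with 0.89 (-1.26 to 3.05) and 0.50 (-0.02 to 1.02) in Ccr2-/- MG. A test of the difference between genotypes over 18 MG libraries called 0 of 12423 genes (0%) in edgeR, with 494 genes at an unadjusted p under 0.05, and 0 in DESeq2 and in limma-voom. For Apoe the difference was 0.19 (-0.33 to 0.71) and for Axl 0.51 (-0.42 to 1.45), so moderate differences between genotypes remain within the intervals. For Mrc1 it was -1.59 (-2.84 to -0.38), with an unadjusted p of 0.0133 and an adjusted p of 1.

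**Figure D5:**
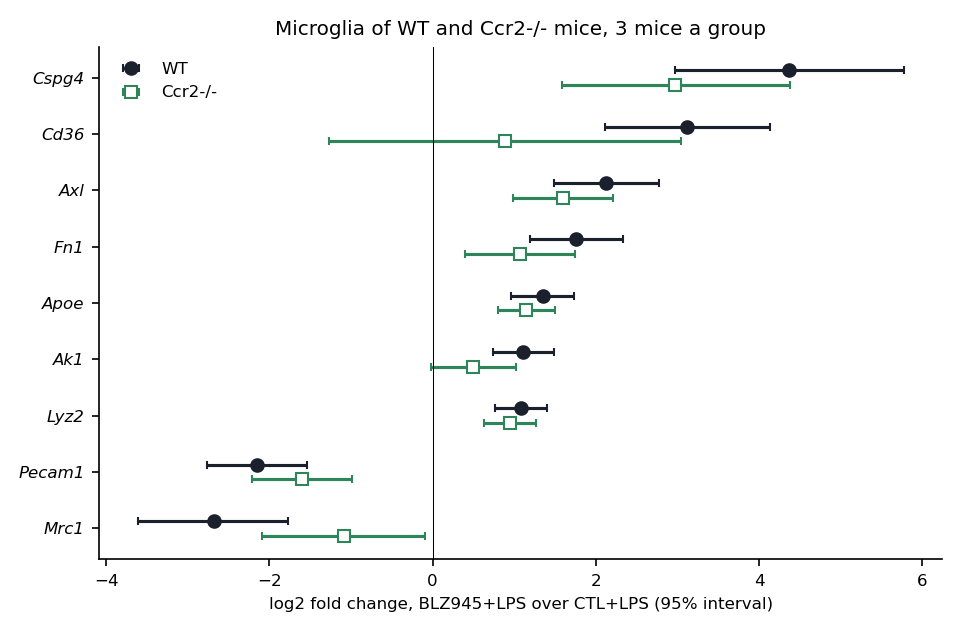
Log2 fold change of BLZ945+LPS over CTL+LPS with its 95% interval for the 9 genes called in WT MG, in WT (filled circles) and Ccr2-/- mice (open squares), 3 mice a group. All 9 pairs share their sign, and the Ccr2-/- intervals of Cd36 and Ak1 reach past 0.

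Beyond the calls, the direction of weaker differences was also shared to a degree. Of the 386 genes higher in WT at an unadjusted p under 0.05 and tested in both genotypes, 281 (72.8%) were higher in Ccr2-/- MG, and of the 359 lower ones, 102 (28.4%) were higher there. Over all 11260 genes tested in both, 49.2% were higher. Of these 11260, 526 had an unadjusted p under 0.05 in Ccr2-/- MG and the same sign as in WT, whatever their p in WT. The 122 genes with an unadjusted p under 0.05 and the same sign in both included Ly9 and Slc11a1, chosen after their values were seen. Ly9, a receptor of the SLAM family, had log2 fold changes of 1.15 in WT and 1.24 in Ccr2-/- MG. Slc11a1, a metal transporter of phagosomes, had 0.72 and 0.74. Neither passed the test in either genotype, with adjusted p of 0.213 and 0.166 for Ly9 and 0.221 and 0.172 for Slc11a1.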

How the data were processed

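The deposited tables held counts of reads per gene symbol, which the authors made from SMARTer-amplified picogram RNA, Nextera XT libraries and single reads of 50 cycles with bcl2fastq 2.20, STAR 2.7.11a and featureCounts 2.0.8, the submitters' notes giving the versions. No unique molecular identifiers were used, the strand setting was not stated, and the notes leave the genome build open between mm10 and GRCm39, so overlapping genes are uncertain and promoter coordinates are those of the RefSeq table. Counts of the 9 WT MG libraries were fitted together in edgeR 4.0.16 (R 4.3.3) with filterByExpr, TMM and the two-sided quasi-likelihood test, adjusted by Benjamini-Hochberg over all genes tested. Genes were called where the adjusted p was below 0.05 and the change exceeded 1 log2 unit. The 9 Ccr2-/- MG libraries had a fit of their own, and the interaction was fitted over 18. The WT and Ccr2-/- libraries carry 1 batch label. The study's methods name a ComBat-seq correction for these datasets, and a batch beyond the label was neither modelled nor tested. CPM are TMM-scaled. Intervals of fold changes come from the fit, and detection floors cover counting error only. The members and gene lists were chosen with earlier results of these data known. Named genes were the calls at 10 CPM or more, up to 15 in a direction, the 5 lower genes with the smallest p, and the members of each list with the highest level or smallest p. Mrc1, below 10 CPM, came in through the lists. The p-values measure the spread between these mice. The fit was tested on simulated data, and alternatives were DESeq2 1.42.0, limma-voom 3.58.1, other scaling, filters, covariates and sets of libraries. Reporter mice were not used here.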

Additional observations from a re-analysis of the deposited data

How the results depend on the processing

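No paired analysis was possible because the groups compared hold different mice, and mouse numbers are not shared between them. For WT MG, BLZ945+LPS against CTL+LPS, the 9 calls became 49 with DESeq2, 5 with limma-voom, 5 with Y-linked transcripts as a covariate, 2 in the 6 libraries alone, 58 with the LPS response strength as a covariate and 17 with the effect averaged over both genotypes, the last 2 chosen after seeing the data. Leaving out 1 library gave 0 to 13 calls. Without untreated mouse 9 it was 3, without mouse 15 it was 1 and without BLZ945+LPS mouse 8 it was 1. The untreated libraries enter this comparison through the filter on low counts, the scaling and the shared estimate of spread. Without untreated mouse 9, 14 or 15, the genes tested were 12176, 12198 and 12120, against 11789 with all libraries. RLE scaling, both other filters, omission of gene classes or sex-linked genes and the fit of 18 libraries gave 9 to 11. None of the 9 genes changed sign in 21 settings, which reuse the same non-overlapping WT values and could hardly change it. Each stayed called in 8 (Ak1, Mrc1) to 15 (Axl) of the 21 settings. Against untreated WT MG, the 1972 calls of CTL+LPS and 1868 of BLZ945+LPS became 3643 and 3413 without a fold-change limit, and, with the limit kept, 1512 to 2577 and 1457 to 2019 with 1 library left out. The 2 calls in Ccr2-/- MG became 27 with DESeq2, 5 with the study's low-count rule, 1 with Y-linked transcripts as a covariate, 0 in the 6 libraries alone and 0 to 12 with 1 library left out, the ends coming without BLZ945+LPS mice B3m and B4f. The interaction had 0 calls in each alternative run. List medians of lysosomal, disease-associated, MHC and interferon-stimulated genes stayed positive in 21 of 21 settings, while those of cytokines and chemokines took either sign. Medians of glucocorticoid-responsive and immediate early genes stayed negative in 21 of 21 settings, at -0.331 to -0.039 and -0.247 to -0.066. The cause of these changes was not tested.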

Other observations

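When the BLZ945 effect was averaged over the 12 MG libraries of WT and Ccr2-/- mice given LPS, a fit chosen after seeing the data, calls were made for 17 of 11105 genes (0.153%), of which 13 rose and 4 fell with BLZ945, and 6 of the 9 WT calls recurred. Apoe, Axl, Lyz2, Fn1, Cspg4 and Pecam1 were among them, while Cd36, Ak1 and Mrc1 were not. P2ry14 had a log2 fold change of 2.14 (adjusted p = 0.00385), and Ptger3 was called lower (adjusted p = 0.00385). Further genes called higher were Fxyd5 at 1.18, Ly9 at 1.20, Rab7b, a small GTPase of late endosomes, at 1.497, Tnfsf13b, which encodes the B cell factor BAFF, at 1.04, and Ms4a4c at 1.17. Lox, a cross-linker of collagen, stood at 1.94 and Mdfic at 1.56. Serpinf1 at -1.11 and Gpd1, a glycerol phosphate dehydrogenase, at -1.10 were called lower. These genes were chosen by this fit, and since it uses the WT libraries it is no independent check of the WT calls.

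Among the few WT libraries compared here, resident MG differed more from each other after LPS than repopulated MG did. The chi-square per gene between 2 libraries of a group was 26.5 to 79.9 in CTL+LPS, 14.6 to 18.9 in BLZ945+LPS and 7.49 to 13.4 in untreated WT MG, and values far above 1 show that no 2 libraries of these groups were the same library. Mouse 1, the CTL+LPS mouse with the strongest response, was the one with Xist. With 1 such mouse a group, the sex and the response of mouse 1 cannot be told apart. Mouse 8, the BLZ945+LPS mouse with Xist, had the smallest response of its group. Its induced genes stood at 1.23 against 1.35 and 1.25, and its repressed genes at -1.12 against -1.31 and -1.19. The part of sex was not tested.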
